A study of Mus musculus with 27 samples.

Results

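The natriuretic peptide genes, their receptors and the *Corin* protease gene were examined for histone H3 lysine 4 (H3K4) methylation in embryonic mouse hearts. Mutant hearts carried a homozygous, and control hearts a heterozygous, deletion of *Kmt2d* in heart muscle. *Kmt2d* encodes an H3K4 methyltransferase. The 7 genes were *Nppa*, *Nppb*, *Nppc*, *Npr1*, *Npr2*, *Npr3* and *Corin*. A region was assigned to a gene when it lay in the gene body or within 50 kb of the main transcription start site (TSS), the 5′ end of the gene record in the GENCODE vM1 annotation of mouse assembly mm9. These windows held 161 of the 358833 regions in which the study called H3K4me1, H3K4me2 or H3K4me3, merged over marks and replicates. Here they are called merged regions.

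Chromatin immunoprecipitation and sequencing (ChIP-Seq) was performed on C57BL/6 hearts at embryonic day (E) 11.5. Control hearts were *Tnnt2::Cre;Kmt2d fl/+* and therefore also carried Cre recombinase and 1 floxed copy of *Kmt2d*, which Cre would delete in heart muscle. Mutant hearts were *Tnnt2::Cre;Kmt2d fl/fl*, and the mTmG reporter of Cre activity was bred into both groups. For each genotype, hearts were combined into 3 pools of 30, and each pool gave an input library and H3K4me1, H3K4me2 and H3K4me3 libraries, or 24 heart libraries in all. The *Tnnt2* promoter drives Cre in heart muscle, and the other cell types of the heart are not its target. *Kmt2d* was not measured by cell type in these data. The paper reports that the *Kmt2d* transcript was lowered but not fully lost in mutant hearts at this stage. Whole hearts are cell mixtures, and fewer cells bearing a mark cannot be told apart from less of the mark per cell. KMT2D ChIP-Exo libraries from cardiomyocytes derived from embryonic stem (ES) cells completed the 27 libraries and were not analysed here.

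The deposited lists give a position for each region, with no read count, fold change or value per library. The depth is therefore unknown, the merged list does not record which of the 3 marks a region carried, and membership of a decreased list is the study's own call on mutant against control hearts. The deposited H3K4me2 list holds 6699 regions, a length other than the one stated in the study's text, and all H3K4me2 shares here rest on the deposited list. Exact membership is described here without a test. A main TSS inside a merged region did not separate tissues. It was found for 5 of 5 heart muscle markers, 2 of 3 endocardial and 2 of 2 epicardial markers, and also for 2 of 2 markers each of skeletal muscle, neurons and pancreas and 1 of 3 of liver.

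*Nppa* and *Nppb* encode atrial (ANP) and B-type (BNP) natriuretic peptide, hormones of heart muscle that promote salt excretion and vasodilation. Both genes are classical markers of the chamber myocardium of the embryonic heart and are raised in heart failure. *Nppc* encodes C-type natriuretic peptide (CNP), made largely outside the heart muscle. The peptides signal through cyclic GMP made by the receptors themselves, with *Npr1* encoding the guanylyl cyclase receptor for ANP and BNP and *Npr2* that for CNP. *Npr3* encodes the clearance receptor, which removes all of these peptides, and *Corin* encodes the membrane serine protease of cardiomyocytes that cuts pro-ANP to ANP.

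Every one of the 7 genes had its main TSS inside a merged region, as did 67.4% of 22367 protein-coding genes. None of these 7 TSS regions was in the decreased H3K4me1 or the decreased H3K4me2 list. Among all protein-coding genes with a TSS region, 0.664% had that region in the decreased H3K4me1 list and 28.7% in the decreased H3K4me2 list. The latter share was 30.5% among genes whose TSS region was no narrower and no wider than those of the 7. That range of widths held 12285 of the 15066 genes with a TSS region, so it matched for width only loosely. With 7 genes, 0 in a list gave a 95% Wilson interval of 0% to 35.4%. An interval this wide cannot separate the 7 genes from either background, and these genes were not drawn at random.

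Of the 161 regions, 1 was in the decreased H3K4me1 list, a share of 0.621% (95% Wilson interval 0.11% to 3.43%) against 0.761% of all merged regions. In the decreased H3K4me2 list there were 5 of the 161, or 3.11% (1.33% to 7.06%), against 1.87% of all merged regions. No region was in both lists. These intervals cover counting error only, and neighbouring regions are not independent. By covered base pairs, decreased H3K4me1 took 2.37% of the sequence in the 161 regions and 2.49% of that in all merged regions, and decreased H3K4me2 took 16.8% and 9.09%. The 6 decreased regions were all at least 1000 bp wide. Among regions of that width, 1 of 52 at these genes was in the H3K4me1 list (1.92%, against 2.06% of all merged regions) and 5 of 52 were in the H3K4me2 list (9.62%, against 6.12%).

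The place of the decreased regions differed by list, as it did over all merged regions. In the whole decreased lists, 3682 of 6699 H3K4me2 regions and 95 of 2730 H3K4me1 regions held a protein-coding main TSS. At the genes studied here, 1 H3K4me1 region and 5 H3K4me2 regions are too few to show a difference particular to these genes. The single H3K4me1 region held no TSS, and of the 5 H3K4me2 regions 4 lay over the TSS of a neighbouring gene and 1 inside *Corin*. Of the 19 regions that held a protein-coding main TSS, 4 were in the decreased H3K4me2 list (21.1%, Wilson interval 8.51% to 43.3%), against 27.4% of all such merged regions. None of the 19 was in the decreased H3K4me1 list, where the background was 0.707%. Among the 142 regions without a protein-coding main TSS, each list held 1 (0.704%), against 0.763% for H3K4me1 and 0.874% for H3K4me2 in all merged regions. The distances are drawn in the map of regions around each TSS.

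**Figure D1:**
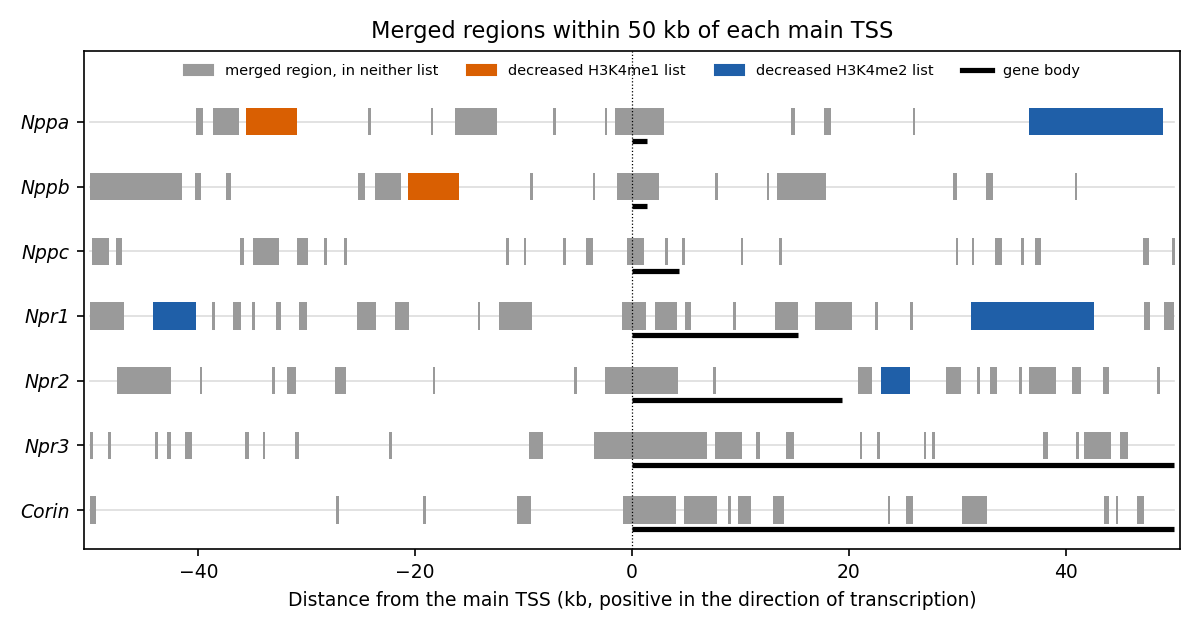
Merged regions within 50 kb of the main TSS of each of the 7 genes, with distance in kb on the x axis, positive in the direction of transcription, and 1 row per gene. Grey boxes are regions in neither list, the orange box is the region in the decreased H3K4me1 list, blue boxes are regions in the decreased H3K4me2 list, and black lines are gene bodies. The narrowest boxes are drawn wider than scale so that they can be seen. The *Corin* region in the decreased H3K4me2 list lies outside the plotted range. All 7 boxes over a TSS are grey.

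To describe the peptide genes together, the windows of *Nppb* and *Nppa* were joined. *Nppb* (ENSMUSG00000029019.8, chr4:147359897-147361314, plus strand) and *Nppa* (ENSMUSG00000041616.9, chr4:147374831-147376188, plus strand) lie in tandem with their TSSs 14.9 kb apart. The joint window of 114.9 kb held 16 merged regions, of which 12 fell in both single windows. Upstream of *Nppb* it held the TSSs of *Plod1*, which encodes a collagen lysyl hydroxylase, and of *2510039O18Rik*.

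The regions over the peptide genes were of similar width. The *Nppb* TSS region (chr4:147358526-147362345) was 3820 bp wide and reached from 1371 bp upstream to 2448 bp downstream of the TSS. The *Nppa* TSS region (chr4:147373246-147377785) was 4540 bp wide and reached from 1585 bp upstream to 2954 bp downstream. Each covered 100% of its short gene body, of 1418 bp in *Nppb* and 1358 bp in *Nppa*. Across protein-coding genes, 52.9% of TSS regions were narrower than that of *Nppb* and 63.3% were narrower than that of *Nppa*. Between them lay 2 narrow intergenic regions of 180 and 160 bp.

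The H3K4me1 region was upstream of both peptide genes. It spanned chr4:147339266-147343945, was 4680 bp wide and lay in intergenic sequence between *2510039O18Rik* and *Nppb*. Its nearer edge was 16 kb upstream of the *Nppb* TSS and 30.9 kb upstream of the *Nppa* TSS. It was wider than either peptide TSS region. A gap of 640 bp separated it from an upstream region of 2400 bp, and a gap of 6560 bp from the next region towards *Nppb*, which was 120 bp wide. Both of these neighbours were in neither list. For *Nppb*, 4.29% of protein-coding genes had a nearer decreased H3K4me1 region, and for *Nppa* 8.18% did, against a median distance of 315 kb over all genes.

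The widest region upstream of the peptide genes, of 10640 bp over the TSSs of *Plod1* and *2510039O18Rik*, was in neither list. It lay 41.5 kb upstream of the *Nppb* TSS.

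**Figure D2:**
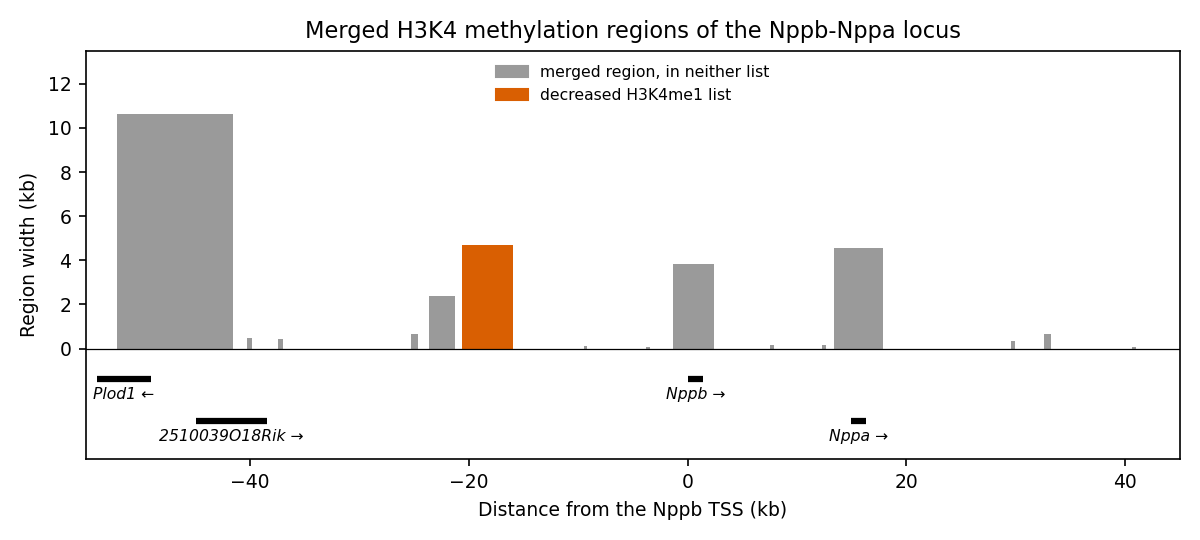
Merged regions of the joint *Nppb* and *Nppa* window up to 45 kb downstream of the *Nppb* TSS, with distance from the *Nppb* TSS in kb on the x axis and region width in kb on the y axis, where each bar spans its region and rises to its width. Grey bars are in neither list, the orange bar is in the decreased H3K4me1 list, and black lines below are the bodies of *Plod1*, *2510039O18Rik*, *Nppb* and *Nppa*, with arrows for their direction. The narrowest bars are drawn wider than scale. The orange bar of 4680 bp lies upstream of *Nppb*, and the grey bars over *Nppb* and *Nppa* are 3820 and 4540 bp wide.

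The promoter sequences of the peptide genes are shown because these genes encode the hormones of heart muscle, and their TSS regions were in neither list. They come from RefSeq (GRCm38.p6) and matched mm9 exactly and once, as did those of all 7 genes. The RefSeq start of *Nppa* was the vM1 main TSS. That of *Nppb* was 112 bp downstream of it, so that part of the *Nppb* stretch lies inside the vM1 gene record. Each line is the 250 bases before the RefSeq start, 5′ to 3′ on the strand of the gene, at chr4:147374581-147374830 for *Nppa* and chr4:147359759-147360008 for *Nppb*. Capitals mark matches on either strand to the 6 motifs searched for heart transcription factors. These were AGATAA for the GATA factors, AAGTG for NKX2-5, GTGTGA for T-box factors and GGAATG for TEAD factors, and the SRF CArG box and the MEF2 box by name.
Nppa: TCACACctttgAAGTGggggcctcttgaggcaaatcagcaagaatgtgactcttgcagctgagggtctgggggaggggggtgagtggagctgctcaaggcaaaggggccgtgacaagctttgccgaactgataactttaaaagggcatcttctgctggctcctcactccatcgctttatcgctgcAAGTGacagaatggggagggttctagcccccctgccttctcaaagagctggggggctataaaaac
Nppb: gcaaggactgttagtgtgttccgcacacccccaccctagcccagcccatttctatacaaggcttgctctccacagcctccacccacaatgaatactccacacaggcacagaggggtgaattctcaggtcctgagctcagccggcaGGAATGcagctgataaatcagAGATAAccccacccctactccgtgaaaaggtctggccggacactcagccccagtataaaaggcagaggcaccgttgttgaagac

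The *Nppa* stretch held 3 motif matches. The NKX2-5 letters occurred 2 times in it, starting at positions -239 and -65 from the RefSeq start on the gene's strand, and the T-box letters occurred once, starting at -250 on the other strand. The *Nppb* stretch held 2, with the TEAD letters starting at -105 and the GATA letters at -84, both on the gene's strand. Of 32851 RefSeq promoters of 300 bases, 46.4% held the NKX2-5 letters, 14.5% the T-box letters, 14.7% the TEAD letters and 11.2% the GATA letters. The CArG box (1.63% of promoters) and the MEF2 box (3.19%) were in neither. The promoters of the other 5 genes held no match to any of the 6 motifs, where that of *Npr3* was taken 1697 bp upstream of its vM1 main TSS. A match is a run of letters and was not tested as a binding site.

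The centre of the H3K4me1 region is shown as the one stretch of decreased H3K4me1 at these genes, on the plus strand, with the same motifs in capitals. Its 200 bases are chr4:147341506-147341705.
Upstream region: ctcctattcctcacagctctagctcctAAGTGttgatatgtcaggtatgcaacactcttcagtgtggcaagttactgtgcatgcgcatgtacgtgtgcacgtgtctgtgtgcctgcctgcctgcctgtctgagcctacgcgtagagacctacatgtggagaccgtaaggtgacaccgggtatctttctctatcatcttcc

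Over its full 4680 bp the region held 12 matches to the NKX2-5 letters (2.56 per kb), 3 to GATA (0.641 per kb) and 3 to T-box (0.641 per kb), and none to TEAD, CArG or MEF2. The 83067 merged regions of at least 1000 bp held 2.54, 0.649 and 0.698 per kb of the first 3, and 0.625 per kb of the TEAD letters. The densities of the first 3 in it were near those of other wide regions, and the TEAD letters had no match. With counts of 12 or fewer in 1 region, these are values without a test. Its GC content was 49.3%, and its ratio of observed to expected CpG was 0.208, against medians of 45.4% and 0.194 over all merged regions.

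*Nppc* (ENSMUSG00000026241.3, chr1:88562866-88567147, minus strand) was the most sparsely covered of the 7. Its 100 kb window held 23 regions, above the median of 18 per 100 kb of window over all protein-coding genes. They covered 11.5% of it, against a median of 16.7%. Their median width was 220 bp, and 11 of the 23 were under 200 bp. The *Nppc* TSS region (chr1:88566066-88567645) was 1580 bp wide, and 11.6% of all TSS regions were narrower. The widest region of the window measured 2440 bp and lay 32.6 kb upstream over the TSS of another gene. No region of the window was in either list, and the nearest decreased regions were 600 kb away for H3K4me1 and 57.8 kb for H3K4me2. The medians over all protein-coding genes were 315 kb and 65.7 kb.

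The *Nppc* promoter is shown for contrast with the cardiac peptide genes. It is the 250 bases before the RefSeq start, on the minus strand at chr1:88567149-88567398, and has no capitals because it held none of the 6 motifs.
Nppc: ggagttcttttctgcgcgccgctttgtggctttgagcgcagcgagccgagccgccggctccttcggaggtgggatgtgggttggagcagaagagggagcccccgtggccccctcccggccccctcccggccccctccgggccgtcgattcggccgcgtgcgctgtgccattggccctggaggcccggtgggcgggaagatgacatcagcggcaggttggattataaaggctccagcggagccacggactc

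The CpG ratio separated these promoters. Over 300 bases it was 0.806 in *Nppc*, 0.28 in *Nppa* and 0.305 in *Nppb*, against a median of 0.384 over all RefSeq promoters, of which 79.6%, 39.4% and 42.4% were lower. The receptor genes lay between, at 0.716 in *Npr1*, 0.463 in *Npr2* and 0.584 in *Npr3*, and *Corin* was the lowest of the 7 at 0.267. The *Npr3* bases lie around a RefSeq start 1697 bp upstream of the vM1 main TSS. Their GC content was 39%, against a median of 52.7% over RefSeq promoters. Over the whole TSS regions *Nppc* and *Npr1* were again above the rest, at 0.686 and 0.797, and these were also the narrowest TSS regions. The other TSS regions had ratios between 0.244 and 0.52.

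**Figure D3:**
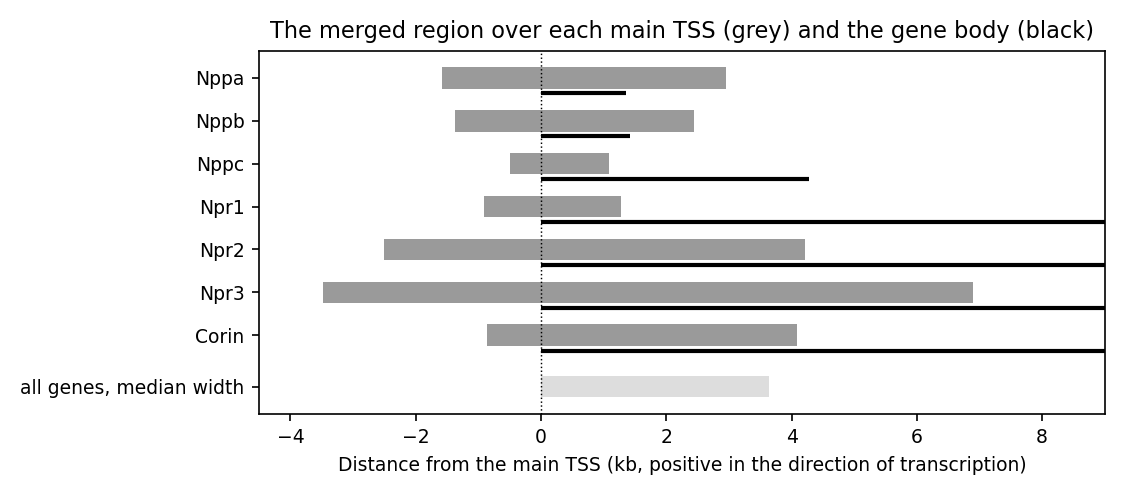
The merged region over the main TSS of each of the 7 genes (grey), with distance from the TSS in kb on the x axis, positive in the direction of transcription, and the start of the gene body (black). The bottom bar has the length of the median TSS region over all protein-coding genes, 3640 bp, and is placed at 0 only for scale. The *Nppc* and *Npr1* regions are shorter than that bar, and the *Npr3* region is the longest at 10380 bp.

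The receptor genes showed a range of coverage. *Npr1* (ENSMUSG00000027931.6, chr3:90254513-90269788, minus strand) lies among many genes and had the most densely covered window, with 22 regions over 39.1% of 100 kb. Of protein-coding genes, 89.6% had a lower coverage. The median width of its regions was 860 bp, and 10 of the 22 were at least 1000 bp wide. The *Npr1* TSS region (chr3:90268506-90270705) was nonetheless narrow, at 2200 bp. Another region, of 2060 bp, covered exons 3 to 5, and one of 2160 bp covered the last 2 of the 22 exons.

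Both decreased regions of the *Npr1* window were in the H3K4me2 list and lay over other genes. A region of 11340 bp (chr3:90227206-90238545), the widest of the window, held the TSS of *Ints3*, a subunit of the Integrator and single-stranded DNA-binding complexes, and lay 31.2 kb downstream of the *Npr1* TSS. The other, of 4000 bp (chr3:90309986-90313985), held the TSS of *2500003M10Rik* and lay 40.2 kb upstream. The 5 regions over the *Npr1* gene body, which covered 39.8% of it, were in neither list.

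*Npr2* (ENSMUSG00000028469.8, chr4:43644807-43664116, plus strand) had 19 regions over 24.5% of its window, with a median width of 660 bp. Its TSS region (chr4:43642306-43649025) was the widest of its window at 6720 bp, and 82.2% of all TSS regions were narrower. It ran from 2501 bp upstream to 4218 bp downstream and covered exons 1 and 2. Besides it, 1 region of 100 bp in intron 2 was the only merged region over the *Npr2* body. The decreased H3K4me2 region of the window (chr4:43667726-43670425, 2700 bp) lay 22.9 kb downstream of the *Npr2* TSS, past the gene's end, over the TSS of *Hint2*, which encodes a mitochondrial nucleotide hydrolase.

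*Npr3* (ENSMUSG00000022206.5, chr15:11769651-11835429, minus strand) had the widest TSS region of the 7. It measured 10380 bp (chr15:11828526-11838905), wider than 93.1% of all TSS regions, and ran from 3476 bp upstream to 6903 bp downstream, over exon 1 and into intron 1. The RefSeq start of *Npr3*, 1697 bp upstream of the vM1 main TSS, lay in the same region. Together with a region of 2560 bp over exon 2, it covered 92.3% of intron 1, against 16.2% of intron 3, the longest intron. The window of 115.8 kb held 28 regions over 22.5% of its length, with a median width of 350 bp. None was in either list, and the nearest decreased regions lay 370 kb away for H3K4me1 and 133 kb away for H3K4me2. Of protein-coding genes, 54.3% had a nearer H3K4me1 region and 66% a nearer H3K4me2 region.

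*Corin* (ENSMUSG00000005220.2, chr5:72691264-72895779, minus strand) held the one decreased region that lay inside a member gene. The gene is 204516 bp long, and its window of 254.5 kb had 53 regions over 20.5% of its length, with a median width of 540 bp. Its TSS region (chr5:72891686-72896645) was the widest, at 4960 bp, and was in neither list. The decreased H3K4me2 region (chr5:72770886-72773685) was 2800 bp wide and lay in intron 5, 122 kb downstream of the TSS and between neighbours at gaps of 700 and 760 bp. It overlapped no exon. Intron 5, of 49.8 kb, held 13 regions over 38% of its length, and this was the only one of the 13 in a list. The nearest decreased H3K4me1 region lay 715 kb from the TSS. A decreased H3K4me2 region outside the window, at 51.9 kb, was nearer to the TSS than the one in intron 5.

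Merged regions were concentrated in the 5′ part of *Corin*. From the TSS to the start of exon 6, 34 regions covered 34.5% of 132.3 kb, and 17 of them were at least 1000 bp wide. From exon 6 to the gene's end, 15 regions covered 4.82% of 72.19 kb, with a median width of 100 bp, and none reached 1000 bp. This division at exon 6 was chosen after the values were seen. The regions along the gene are drawn by distance from its TSS.

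**Figure D4:**
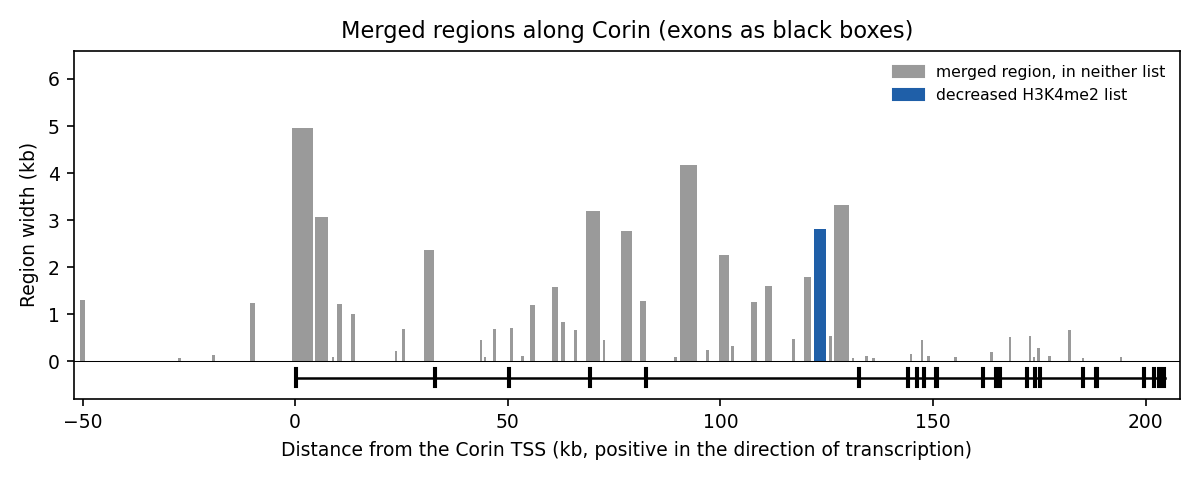
The 53 merged regions of the *Corin* window, with distance from the *Corin* TSS in kb on the x axis, positive in the direction of transcription, and region width in kb on the y axis. Grey bars are in neither list and the blue bar, of 2800 bp in intron 5, is in the decreased H3K4me2 list. Black boxes below are exons of the longest transcript, and the narrowest bars and boxes are drawn wider than scale. Regions of at least 1000 bp stop at exon 6.

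The centre of the *Corin* intron 5 region is shown as the one decreased stretch inside a member gene. Its 200 bases are chr5:72772186-72772385 on the plus strand, which is the strand opposite to the gene, with motif matches in capitals.
Corin intron 5: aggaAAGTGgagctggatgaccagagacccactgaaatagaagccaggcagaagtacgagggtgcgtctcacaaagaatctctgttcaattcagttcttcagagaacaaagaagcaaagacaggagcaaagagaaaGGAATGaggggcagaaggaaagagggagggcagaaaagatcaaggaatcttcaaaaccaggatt

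The full 2800 bp held 4 matches to the TEAD letters (1.43 per kb), 3 to GATA (1.07 per kb), 6 to NKX2-5 (2.14 per kb), 1 to T-box (0.357 per kb) and 1 to the MEF2 box (0.357 per kb). The wide merged regions held 0.625, 0.649, 2.54, 0.698 and 0.167 per kb of these. With counts of 6 or fewer in 1 region, these densities are given as values without a test. The region had a GC content of 43.6% and a CpG ratio of 0.326.

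Region widths varied widely within each gene. The 161 regions ran from 60 to 12380 bp with a median of 520 bp (quartiles 140 and 1320 bp), and 32.9% were under 200 bp. All merged regions had a median of 320 bp, with 42.4% under 200 bp. The medians of single genes ran from 220 bp in *Nppc* to 860 bp in *Npr1*. Over the windows of protein-coding genes, such medians had a middle value of 400 bp (quartiles 180 and 610 bp). The decreased lists held wider regions, with medians of 1740 bp for H3K4me1 and 3180 bp for H3K4me2. By annotation, 22 of the 161 regions held a TSS of some transcript, 16 others held an exon, 81 were intronic and 42 intergenic. The intronic class was largest in the *Corin* window, with 46 of its 53 regions.

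**Figure D5:**
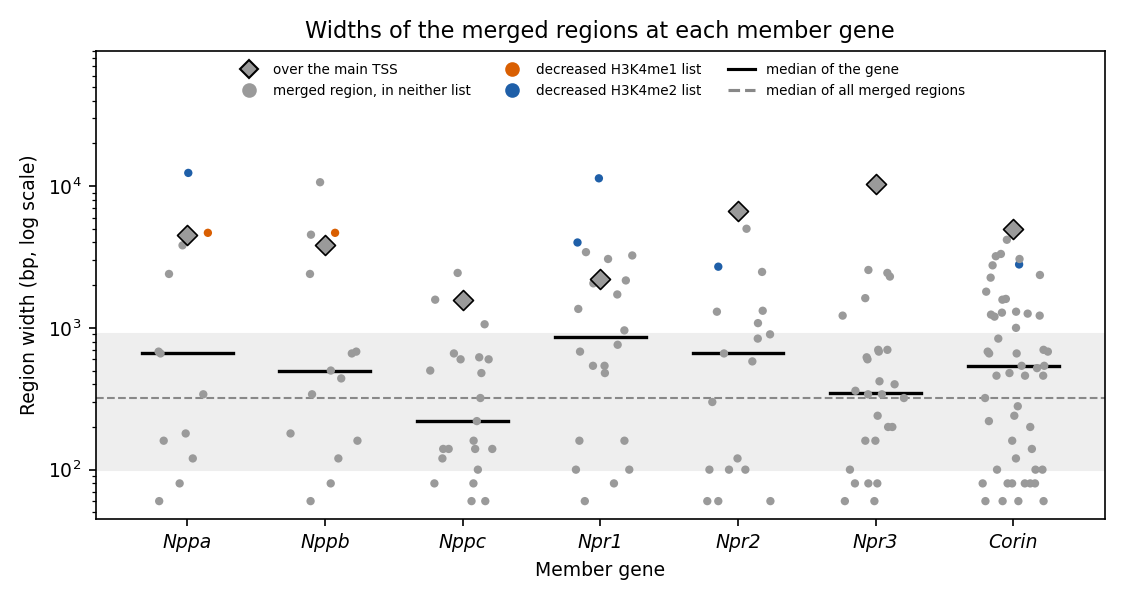
Width in bp, on a log axis, of every merged region at each of the 7 genes, with a diamond for the region over the main TSS and coloured points for regions in a decreased list. Black lines are the median of each gene, the dashed line is the median of all merged regions (320 bp), and the shaded band spans their quartiles. Coloured points are at 2700 bp or above, and regions shared by *Nppa* and *Nppb* are drawn for both.

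Counted by gene, 2 of the 7 windows held a decreased H3K4me1 region, and *Nppa* and *Nppb* shared it. The background was 14.4% of protein-coding genes. Decreased H3K4me2 regions were in 4 of the 7 windows, those of *Nppa*, *Npr1*, *Npr2* and *Corin*, against 45.7% of protein-coding genes. Within the gene body or 5 kb of the main TSS, none of the 7 had a decreased H3K4me1 region (background 6.26%), and only *Corin* had a decreased H3K4me2 region (background 25.5%). Beyond *Corin*, every decreased region assigned to these genes therefore came from the flanks.

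Other genes of the natriuretic peptide and cyclic GMP pathway were described in the same way, from the gene body and 5 kb around the main TSS. The list held 19 genes for peptide processing, another ligand of the clearance receptor, soluble guanylyl cyclases, cyclic GMP-dependent kinases, phosphodiesterases and kinase substrates. A decreased H3K4me1 region was found at 3 of 19, and a decreased H3K4me2 region at 9 of 19, against the 6.26% and 25.5% of protein-coding genes above. That background was not matched for gene length or number of regions, and *Prkg1* held 203 merged regions and *Pde3a* 68. At *Ide*, *Prkg1*, *Pde3a* and *Pde9a* the H3K4me2 count rested only on intronic regions of 60 to 160 bp. In all 10 genes had a region in either list, 2 in both and 9 in neither. The main TSS lay in a merged region for 17 of 19.

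Of the 17 genes with a TSS region, 4 had it in the decreased H3K4me2 list and 0 in the decreased H3K4me1 list, against 28.7% and 0.664% of all protein-coding genes with a TSS region. The H3K4me2 share was thus not above the background. The 4 genes were *Pln*, which encodes phospholamban, the inhibitor of the sarcoplasmic reticulum calcium pump, with a region of 21180 bp, and *Mme* (2980 bp), *Pde5a* (2900 bp) and *Gucy1a2* (2480 bp). *Mme* encodes neprilysin, a peptidase that degrades natriuretic peptides, *Pde5a* a phosphodiesterase of cyclic GMP, and *Gucy1a2* a subunit of soluble guanylyl cyclase. *Pde2a*, another phosphodiesterase gene, had a 2140 bp region over the start of a shorter transcript, 28.7 kb into the gene.

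The other decreased regions of the list lay in introns. In *Pcsk6*, whose product PCSK6 activates corin, a region of 4480 bp, 7.21 kb into the gene, was in the decreased H3K4me1 list. The regions in *Ide* (160 bp) and *Pde3a* (160 bp) were each in both lists, and those in *Prkg1* (120 and 60 bp) and *Pde9a* (60 bp) were in the H3K4me2 list. These 5 narrow regions were unlike the decreased regions at the member genes, of which the narrowest was 2700 bp.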

How the data were processed

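H3K4 ChIP-Seq was performed by the authors on 24 libraries of E11.5 hearts, grouped by sample title. The submitters' processing notes name CASAVA 1.8.2, FastQC, Bowtie2, Bowtie, SAMtools and mm9. Decreased regions were those below a false discovery rate threshold set by the authors. The peak caller and the statistical test that gave this rate were not given in the sources used here. The authors called peaks, merged them over replicates and marks, and deposited region positions only, with no score per region, and all depths are unknown. Starts were converted to 1-based positions. Membership of a decreased list required identical coordinates, which every decreased region had in the merged list. Annotation was GENCODE vM1 on NCBIM37. Analyses used Python 3.11.15, NumPy 2.4.6 and SciPy 1.17.1, with Matplotlib 3.10.9 for plots. Interval and motif searches were tested on simulated data. Promoters were RefSeq sequences, 250 bases before to 50 after the start.

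The members, the pathway list and the motifs were chosen with earlier results of these data known. All 7 members were named with each decreased, TSS-holding and widest region. Other genes were named if a pathway gene had a decreased region, or if their TSS lay in the joint window or in a decreased region of a member window. Alternatives changed the window, the TSS, the assignment, the minimum width and the match rule. No test was made, since the lists hold no values per replicate. The position and annotation of 1 decreased H3K4me2 region are not reported here, and it enters only the counts, shares, widths and the plots of regions around each TSS and of widths.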

Additional observations from a re-analysis of the deposited data

How the results depend on the processing

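Of 38 alternative values for 7 results, 26 stayed within 1.5-fold of the value given, or for shares within its Wilson interval, and 12 did not. The Wilson intervals are wide. Thus 2.37% by base pairs and 1.2% with regions of at least 500 bp counted as unmoved from the H3K4me1 share of 0.621%. So did 6.02% with regions of at least 500 bp, from the H3K4me2 share of 3.11%. With the 100 kb window, the 4 genes with a decreased H3K4me2 region became 6. That is at the 1.5-fold limit and also counted as unmoved. The median width of 520 bp became 1300 bp with regions of at least 500 bp. The 161 regions became 82 with a 5 kb window, 260 with a 100 kb window, 103 when the nearest protein-coding TSS had to be that of a member, and 83 with regions of at least 500 bp. The decreased H3K4me1 share of 0.621% and its 2 genes both became 0 with the 5 kb window. The decreased H3K4me2 share of 3.11% became 1.22% with the 5 kb window, 0.971% under the nearest-TSS rule and 16.8% by base pairs, and its 4 genes became 1 with the 5 kb window and 1 under the nearest-TSS rule. The 5 kb window leaves out the flanks, and the nearest-TSS rule leaves out regions over neighbouring genes. Both alternatives for the 7 main TSSs only loosened the rule, so all 7 had to stay inside a merged region. The match by any overlap could not differ either. Every decreased region was identical to a merged one, and merged regions do not overlap each other. These values are among the 26 and do not measure stability. Leaving out replicates and stricter peak thresholds were not run. No paired analysis was possible because the lists hold no values per replicate. Without read depth, a region outside a decreased list may still have changed.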
